A study of Mus musculus with 50 samples.

Results

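The nuclear-encoded genes of the respiratory chain were followed in mouse motor neurons from the embryo to old age and in culture. The members were chosen by symbol, as all genes whose name starts with Nduf, Uqcr, Cox4 to Cox8 or Atp5 or is Sdha, Sdhb, Sdhc or Sdhd, without pseudogene names ending in -ps. The rule found 98 of the 55385 genes in the expression tables. By complex, these were 41 genes of complex I, 8 genes of complex I assembly (Ndufaf), 4 of complex II, 8 of complex III, 19 of complex IV and 18 of complex V. The annotation lists 94 of them as protein coding and 4 as processed pseudogenes (Ndufs6b, Cox6c2, Ndufb4c and Ndufa11b). The 11 matching symbols that end in -ps held 0.42% as many counts as the members.

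Respiration in mitochondria passes electrons from NADH (complex I, NADH dehydrogenase) and from succinate (complex II, succinate dehydrogenase) through complex III (cytochrome bc1) and complex IV (cytochrome c oxidase) to oxygen. The proton gradient this builds drives complex V, the ATP synthase. Most subunits are encoded in the nucleus and imported, while a small core of subunits is encoded by mitochondrial DNA, so that each complex except complex II is put together from the products of both genomes. Several subunits of complex IV come in isoforms that differ between tissues, such as heart, skeletal muscle and testis. Neurons depend on this pathway for the ATP that keeps ion gradients.

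The study followed mouse spinal motor neurons through their maturation with RNA-seq and with ATAC-seq, which maps open chromatin. At E10.5, GFP-positive whole cells were sorted from spinal cords of C57BL/6 HB9-GFP embryos (3 RNA libraries). Nuclei were purified by their tag from spinal cords of C57BL/6 mice carrying Chat-Cre;SUN1-GFP-3xMYC for the later stages, which were E13.5 (2 RNA libraries), P4 (3), P13 (2), P21 (3), P56 (3) and 2 years (2). Motor neurons derived from stem cells with the same Chat-Cre;SUN1-GFP-3xMYC alleles gave nuclei at 0, 7 and 28 days in vitro (DIV0, DIV7 and DIV28; 2, 2 and 3 RNA libraries) and after 28 days with 1 µM tetrodotoxin (TTX), a blocker of sodium channels (3 RNA libraries). DIV0 cells came from embryoid bodies, and the DIV7 and DIV28 cells grew with cortical astrocytes from P2 mice. Time in culture after DIV0 cannot be told apart from this change of culture format. Chat-Cre marks all cholinergic neurons, so visceral motor neurons and interneurons were included, and plates of 1 genotype were pooled within an experiment. The ATAC-seq set held 22 libraries, 2 of each of these ages and conditions. Whole-cell RNA was used at E10.5 and nuclear RNA at every other stage. The mouse line, the way of purifying and the spinal segments also differed between E10.5 and the later tissue RNA. Segments were brachial, thoracic and lumbar at E10.5, and brachial and lumbar for the later RNA. None of these differences can be told apart from age. For its RNA preparations the paper reports a lower share of GFP-positive nuclei at E13.5 and P4 than from P13 on. It also reports some contamination from blood vessels at E13.5 and P4.

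Counts per library ranged from 2704682 (DIV7) to 21823500 (DIV28). *Chat* was found in all 28 RNA libraries, and the 6 motor neuron markers summed to between 277 and 1773 CPM (counts scaled by the total of the library). Markers of other cells moved with age. The 8 erythroid markers summed to 3578 to 3652 CPM at E13.5, 239 to 329 at P4 and at most 2.2 at E10.5. The 6 endothelial markers summed to 2751 to 4575 CPM at E13.5, 1186 to 1649 at P4, 64.2 to 99.4 at P13 and 6.3 to 14.1 at P21. The 6 oligodendrocyte markers peaked at P13 with 2106 to 2167 CPM, and the 7 astrocyte markers peaked at P4 with 613 to 766 CPM. The 6 microglia markers stayed at or below 16.9 CPM in every library, and the 5 fibroblast markers were highest at E13.5, with 214 to 428 CPM. The library titled DIV0 replicate 3 was counted as the third DIV28 library, following the study, which has 2 DIV0 and 3 DIV28 replicates, and the counts that rest on it are given with and without it. For tissue, the study combined spinal cords of several animals in each replicate and used both sexes. The sources do not say which animals or cultures went into which library, so p-values measure only the spread between these libraries.

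The members together took the largest share of the RNA at E13.5 and a small share in the adult. Their summed level was 5026, 5188 and 5527.5 CPM in the 3 libraries of E10.5 and 8915 and 8564 CPM in the 2 libraries of E13.5. After birth it was 2445, 2299 and 2531 CPM at P4, 3300.1 and 3896 CPM at P13 and 1465, 1676 and 1759.6 CPM at P21. The libraries of E10.5, E13.5, P4, P13 and P21 did not overlap at any of these steps. In the adult the sum was 1432, 1409 and 1691 CPM at P56 and 1741 and 1831 CPM at 2 years, which overlapped with P21 at P56 and lay just above P56 at 2 years. Cultured cells held 1359 and 1315 CPM at DIV0, 1350.2 and 1988 CPM at DIV7, 2590.2, 2192 and 1869.5 CPM at DIV28 and 2753.5, 2138 and 2008 CPM with TTX. Every DIV28 library lay above both DIV0 libraries, and the DIV7 libraries stood apart, with the lower within the DIV0 range and the higher above the lowest DIV28 library. In bulk samples, fewer cells of a type and less RNA per cell cannot be told apart.

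**Figure D1:**
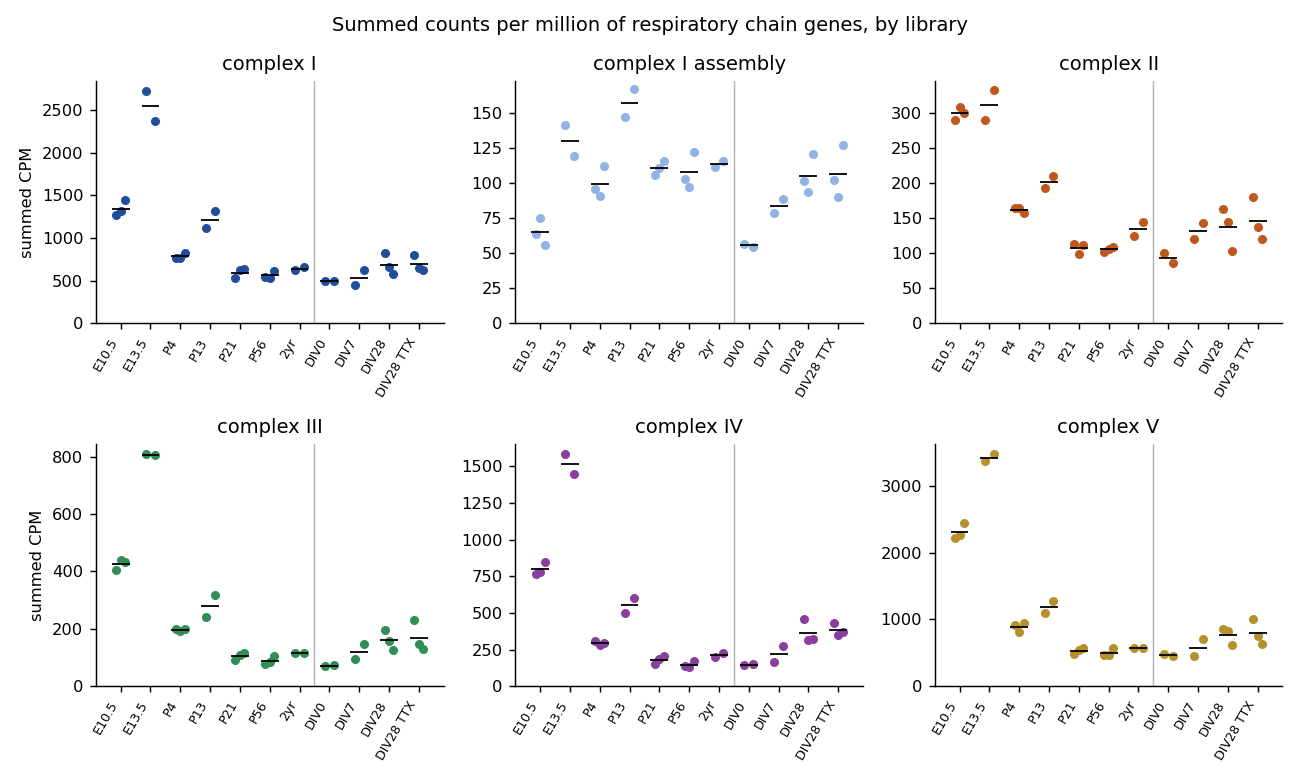
Summed CPM (y axis, linear from 0) of the members of each complex in the 28 RNA libraries, by age or culture condition (x axis). Points are libraries and bars are group means, and the vertical line separates tissue from culture. The 2 libraries of E13.5 sit highest for complexes I, III, IV and V, while the assembly genes of complex I are highest at P13 (147.8 and 167.5 CPM).

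At E13.5 complex V gave the largest part of the sum. Its genes summed to 3371 and 3483 CPM at E13.5 and 477, 547 and 577 CPM at P21. Complex I summed to 2723.5 and 2372 CPM at E13.5 and 526.5, 623 and 633 CPM at P21, and complex IV to 1582 and 1451 CPM and 153, 188.5 and 204.5 CPM. In these 3 complexes every P21 library lay below every E13.5 library. The assembly genes of complex I, whose products help to build the complex and do not stay in it, took another course. At E10.5 they summed to 64.2, 75.6 and 56.3 CPM, at E13.5 to 142 and 119.5 CPM, at P13 to 148 and 167.5 CPM and at P21 to 106, 111 and 116 CPM. Their P21 libraries lay above all 3 libraries of E10.5 and just below those of E13.5. By group mean among the 7 ages, 54 of the 86 genes tested in tissue were highest at E13.5, 26 at E10.5, 4 at P13, and 1 each at P4 and 2 years. The lowest mean was at P56 for 50 genes, at P21 for 14, at 2 years for 10, and at P4 and E10.5 for 6 each.

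Of the 98 members, 86 passed the filter on low values in tissue (at least 5 CPM in every library of at least 1 group) and 76 passed it in culture. The 12 genes left out in tissue were Ndufa11b, Ndufa4l2, Ndufs6b, Cox4i2, Cox6a2, Cox6b2, Cox6c2, Cox7a1, Cox7b2, Cox8b, Cox8c and a readthrough entry that is also named Atp5o. Ndufs6b and Cox8c had no count in any library. Culture left out 10 more, which were Ndufa1, Ndufa3, Ndufb3, Ndufb4c, Ndufs6, Ndufaf2, Ndufaf8, Uqcr10, Cox7a2 and Atp5g2. Ndufb4c is a processed pseudogene of Ndufb4 and may share reads with it, so its own level is uncertain. The genes that passed are not all members, and the counts below are over those tested.

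Most of these genes had open chromatin at their start. Within 500 bases to either side of the gene start, 82 of the 94 protein-coding members had an ATAC peak in all 22 libraries, 8 had one in some libraries and 4 in none. The share per library was between 88.3% and 92.6%, against 58.4% to 64.4% of all protein-coding genes, expressed or not. Most members were expressed, and a share over expressed genes only was not taken. Members without a peak in any library were Cox7b2, Cox8c, Ndufa4l2 and the readthrough Atp5o. The tissue isoforms Cox4i2, Cox6a2 and Cox8b had a peak in 5, 1 and 1 libraries, and the start of the gene record lay outside a peak in all but 1 library for Cox7a2l. The highest peak over a member's start had a median fold enrichment over background of 5.58 to 29.5 across the libraries, against 5.39 to 21.99 over all genes with such a peak. The enrichment depends on the depth of a library, which the peak lists do not give, so it was not compared between ages. The share of members with a peak was 90.4% and 91.5% at E13.5, where the summed RNA was highest, and 89.4% and 90.4% at P56, where it was lowest in tissue.

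Promoter sequences are shown because most of these starts had a peak in all libraries. Presence of a peak does not measure how open a start was, and a change in opening with age was not tested. Known regulators of respiratory genes also read short words in these sequences. NRF1, GABPA (an ETS factor) and YY1 are such regulators. In the RefSeq promoters of GRCm38.p6 (250 bases before to 50 bases after a start), 76 members were matched. GCGCATGC, the core of the NRF1 motif, was found on either strand in 12 of the 76 (15.8%) and in 3.05% of the 27025 genes of the table. CCGGAAGT, an ETS word, was found in 5 (6.6%) against 4.31%, and AAGATGGC, the YY1 word, in 11 (14.5%) against 3.19%. At least 1 of the 3 words lay in 27 members (35.5%) and in 9.91% of all genes. The end of AAGATGGC can overlap the start of GCGCATGC, in which case both were counted, and GCGCATGCGC holds the NRF1 word on both strands. A match is a description of letters and not of binding.
Examples from each complex follow as 180 bases of the promoter, 5′ to 3′ on the strand of the gene, with the word in capitals (GCATGCGC and ACTTCCGG are the reverse complements of the NRF1 and ETS words).
Ndufa6, complex I, chr15:82354292-82354471, minus strand: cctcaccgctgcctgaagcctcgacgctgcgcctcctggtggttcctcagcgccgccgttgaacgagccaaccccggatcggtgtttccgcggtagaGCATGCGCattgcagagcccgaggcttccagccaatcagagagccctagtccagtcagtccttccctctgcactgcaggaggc
Sdhb, complex II, chr4:140961091-140961270, plus strand: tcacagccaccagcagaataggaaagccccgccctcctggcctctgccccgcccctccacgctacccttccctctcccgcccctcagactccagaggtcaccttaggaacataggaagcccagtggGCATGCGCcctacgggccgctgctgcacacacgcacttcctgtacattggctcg
Uqcr11, complex III, chr10:80406822-80407001, minus strand: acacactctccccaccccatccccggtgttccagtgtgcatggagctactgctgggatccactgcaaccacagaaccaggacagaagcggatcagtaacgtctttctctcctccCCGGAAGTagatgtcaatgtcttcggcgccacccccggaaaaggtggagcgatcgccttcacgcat
Cox6a1, complex IV, chr5:115348959-115349138, minus strand: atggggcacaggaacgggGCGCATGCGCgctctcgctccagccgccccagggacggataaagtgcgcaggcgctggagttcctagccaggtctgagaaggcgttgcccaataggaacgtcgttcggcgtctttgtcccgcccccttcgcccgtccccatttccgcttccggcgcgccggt
Atp5h, complex V, chr11:115419920-115420099, minus strand: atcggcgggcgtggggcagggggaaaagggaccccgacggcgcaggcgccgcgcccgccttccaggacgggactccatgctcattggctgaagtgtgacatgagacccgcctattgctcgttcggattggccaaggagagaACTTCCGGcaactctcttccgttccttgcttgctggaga
Atp5k, complex V, chr5:108434400-108434579, minus strand: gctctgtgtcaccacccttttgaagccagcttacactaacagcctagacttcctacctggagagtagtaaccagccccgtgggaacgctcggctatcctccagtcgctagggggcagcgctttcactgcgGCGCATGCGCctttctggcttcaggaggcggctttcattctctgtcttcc
NRF1 words stand in Ndufa6, Sdhb, Cox6a1 and Atp5k, and ETS words in Uqcr11 and Atp5h.

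In the comparisons below, a gene was called where the unadjusted p was under 0.001 and the change reached 2-fold, the limits of the study. Log2 fold changes are of the later over the earlier age. From E10.5 to E13.5 the members moved in both directions: 23 of 86 rose and 8 fell, where 24.6% of all genes tested rose and 19.4% fell. The median member changed by 0.24 and the median gene by 0.13 on the log2 scale. The genes that rose included 11 of complex I, 3 assembly genes, 1 of complex III, 3 of complex IV and 5 of complex V. The 8 that fell were Ndufa7 of complex I, Sdhc and Sdhd, which anchor succinate dehydrogenase in the membrane, Cox5a and Cox7a2l, and Atp5b, Atp5d and Atp5g1 of the ATP synthase. At an adjusted p under 0.05 with no fold limit, 20 members were lower, against 32.1% of all genes.

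In the GENCODE annotation of GRCm38, *Cox6c* lies on chromosome 15 (chr15:35925886-35938246), *Uqcrb* on chromosome 13 (chr13:66900617-66905378), *Atp5mpl* on chromosome 12 (chr12:111961375-111966977) and *Atp5b* on chromosome 10 (chr10:128083273-128090391). Small structural subunits were among those that rose most at this step. *Cox6c*, a structural subunit of cytochrome c oxidase, had 273, 284 and 343 normalised counts (scaled by median-of-ratios size factors) at E10.5 and 3258 and 3449.9 at E13.5, a log2 fold change 3.33 ± 0.16 (SE; edgeR quasi-likelihood test, Benjamini-Hochberg adjusted p = 2.6e-11). *Uqcrb*, a ubiquinone-binding subunit of complex III, went from 105, 115.5 and 96.1 to 1427 and 1693 normalised counts. Neither gene overlapped between the ages, and for *Uqcrb* the log2 fold change 3.73 ± 0.23 (SE; edgeR quasi-likelihood test, Benjamini-Hochberg adjusted p = 3.59e-10) was the highest of all members. *Atp5h* (subunit d), *Atp5j* (coupling factor 6) and *Atp5mpl*, a small membrane subunit, had log2 fold changes of 2.86 ± 0.17, 3.07 ± 0.18 and 2.97 ± 0.21 (SE).

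The catalytic beta subunit of the ATP synthase moved the other way. *Atp5b* had 4249, 4378 and 4948 normalised counts at E10.5 and 2072 and 2217 at E13.5, without overlap, a log2 fold change -1.23 ± 0.15 (SE; edgeR quasi-likelihood test, Benjamini-Hochberg adjusted p = 1.43e-06). *Atp5g1*, a gene for subunit c of the membrane ring, fell by 1.62 on the log2 scale, and *Sdhc* fell by 1.31. The count of genes that fell was 2 without E10.5 replicate 3 and 4 without E13.5 replicate 1, and 3 when only these libraries were fitted. Erythroid and endothelial markers were near 0 at E10.5 and at their highest at E13.5, and their part in these changes was not tested.

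From E13.5 to P4, 66 of the 86 members fell and none rose, where 19% of all genes tested fell and 23.8% rose. By edgeR's quasi-likelihood test and by DESeq2 alike, 0 members were higher at an unadjusted p under 0.05. The median member changed by -1.80 on the log2 scale and the median gene by 0.12. All 8 genes of complex III fell, as did 32 of 38 of complex I, 9 of 11 of complex IV, 12 of 17 of complex V and 3 of 4 of complex II. Among the 8 assembly genes of complex I, 2 fell (Ndufaf2 and Ndufaf8) and the median change was -0.17. The complex medians were -1.93 for complex I, -1.03 for II, -1.94 for III, -2.18 for IV and -1.64 for V.

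*Atp5mpl* changed most. Its 848 and 1481 normalised counts at E13.5 were followed by 34.8, 27.3 and 37.4 at P4, a log2 fold change -4.99 ± 0.24 (SE; edgeR quasi-likelihood test, Benjamini-Hochberg adjusted p = 1.36e-10). *Cox6c* went from 3258 and 3449.9 to 492.5, 444 and 480.4 normalised counts, a log2 fold change -2.68 ± 0.16 (SE; edgeR quasi-likelihood test, Benjamini-Hochberg adjusted p = 5.8e-10). *Atp5a1*, the alpha subunit of the ATP synthase, went from 3284 and 4006 to 789.8, 702 and 809.9 normalised counts, a log2 fold change -2.10 ± 0.16 (SE; edgeR quasi-likelihood test, Benjamini-Hochberg adjusted p = 9.52e-09). In all 3 genes each P4 library lay far below both E13.5 libraries. *Uqcrc1* and *Uqcrc2*, the core proteins of complex III, and *Uqcrfs1*, its iron-sulfur (Rieske) protein, changed less than the small subunits, with log2 fold changes of -1.33 ± 0.14, -1.10 ± 0.15 and -1.20 ± 0.19 (SE). The *Cox4i1* and *Cox7b* genes of complex IV changed by -2.08 ± 0.17 and -2.79 ± 0.20 (SE).

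Among the nuclear core subunits of complex I, which carry its redox centres, Ndufs7, Ndufs8, Ndufv1 and Ndufv2 fell, with log2 fold changes from -1.56 to -1.69. *Ndufs1*, the largest core subunit, had 404 and 427 normalised counts at E13.5 and 377, 336 and 358 at P4, with a log2 fold change of -0.07 ± 0.15 (SE). Its libraries were within a narrow range at every age, from 279.9 to 434 normalised counts over the 18 tissue libraries. *Ndufs3* was lower by less than 2-fold (log2 fold change -0.72 ± 0.19, SE). Also not called were *Atp5b* (-0.85 ± 0.14), *Atp5l*, the g subunit (-0.83 ± 0.15), *Atp5pb*, the b subunit (-0.44 ± 0.17), *Sdha*, the flavoprotein of complex II (-0.84 ± 0.14), and *Ndufaf6* (0.64 ± 0.36), all as log2 fold change with SE. From 63 to 65 members fell when any library was left out. The erythroid markers summed to 3578 to 3652 CPM at E13.5 and 239 to 329 CPM at P4, and the endothelial markers to 2751 to 4575 and 1186 to 1649 CPM, and their part in the change was not tested.

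**Figure D2:**
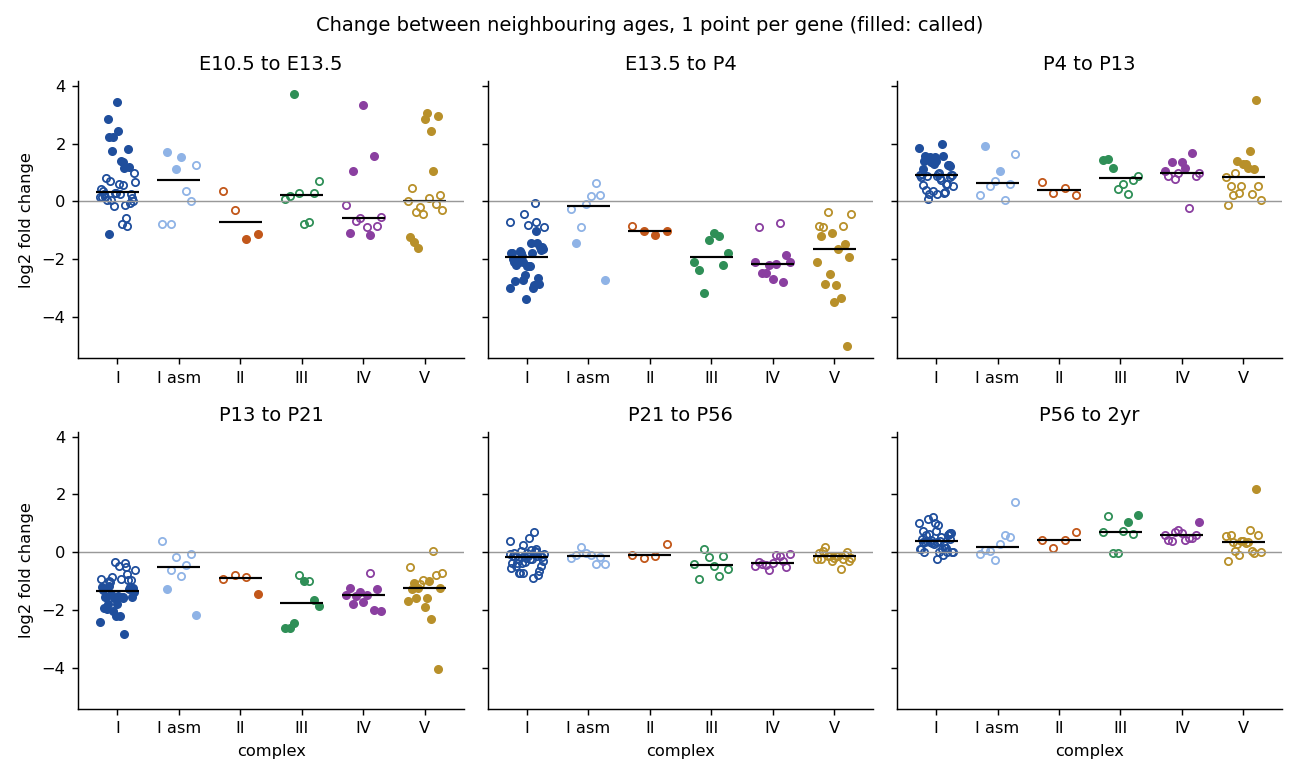
Log2 fold change (y axis) of each tested member between neighbouring ages, by complex (x axis; I asm, assembly genes of complex I). Points are genes, filled where called, and bars are medians. At E13.5 to P4 and P13 to P21 nearly all points lie below 0, at P4 to P13 nearly all lie above 0, and at P21 to P56 no point is filled.

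From P4 to P13 the direction turned. Of the 86 members 31 rose and none fell, where 5.8% of all genes tested rose and 7.54% fell, and 0 members were lower at an unadjusted p under 0.05 by edgeR or DESeq2. At an adjusted p under 0.05 with no fold limit, 63 members were higher, against 18.3% of all genes. On the log2 scale the median change was 0.89 over the members and 0.05 over all genes. Those that rose were 14 of complex I, 2 assembly genes, 3 of complex III, 5 of complex IV and 7 of complex V, and none of the 4 genes of complex II, whose median change was 0.38. *Atp5mpl* rose from 34.8, 27.3 and 37.4 to 341 and 379 normalised counts, a log2 fold change 3.53 ± 0.23 (SE; edgeR quasi-likelihood test, Benjamini-Hochberg adjusted p = 1.16e-07). *Ndufa4*, named for complex I and now counted with complex IV, rose from 59.5, 55.7 and 62.4 to 149 and 183 normalised counts, a log2 fold change 1.57 ± 0.18 (SE; edgeR quasi-likelihood test, Benjamini-Hochberg adjusted p = 6.74e-06). *Ndufab1*, the mitochondrial acyl carrier protein, rose from 161.5, 168 and 226 to 397 and 502 normalised counts. The P13 libraries of these genes lay above all 3 of P4. *Cox6c* and *Cox7b* rose by log2 fold changes of 1.38 ± 0.16 and 1.68 ± 0.20 (SE), and *Atp5g1* by 1.41 ± 0.17 (SE). The oligodendrocyte markers summed to 438 to 562 CPM at P4 and 2106 to 2167 CPM at P13 and the endothelial ones to 1186 to 1649 and 64.2 to 99.4 CPM, and their part was not tested.

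From P13 to P21, 54 of the 86 members fell and none rose, where 5.8% of all genes tested fell and 1.5% rose. At an unadjusted p under 0.05, edgeR and DESeq2 both had 0 members higher. Over the members the median log2 fold change was -1.28, and over all genes it was -0.07. Complex IV had the largest part called, with 10 of 11 genes, followed by complex III with 6 of 8, complex V with 11 of 17, complex I with 24 of 38, the assembly genes with 2 of 8 and complex II with 1 of 4 (*Sdhd*). *Atp5mpl* had 341 and 379 normalised counts at P13 and 18.2, 23.9 and 27.6 at P21, a log2 fold change -4.03 ± 0.25 (SE; edgeR quasi-likelihood test, Benjamini-Hochberg adjusted p = 9.42e-08). *Cox6c* had 1062 and 1246 at P13 and 341, 401 and 359 at P21, a log2 fold change -1.74 ± 0.16 (SE; edgeR quasi-likelihood test, Benjamini-Hochberg adjusted p = 1.88e-06). *Atp5a1* had 1228 and 1368.5 at P13 and 354, 449.9 and 472 at P21, a log2 fold change -1.70 ± 0.16 (SE; edgeR quasi-likelihood test, Benjamini-Hochberg adjusted p = 3.49e-06). None of these 3 genes overlapped between the ages. *Cox8a*, a small structural subunit of complex IV, and *Ndufa4* changed by -2.05 ± 0.23 and -1.97 ± 0.19 (SE). *Atp5l* was not called and its ages overlapped, with 314 and 282 normalised counts at P13 and 359.5, 288 and 327 at P21 and a log2 fold change of 0.03 ± 0.15 (SE). Oligodendrocyte markers summed to 2106 to 2167 CPM at P13 and 1130 to 1528 CPM at P21, and their part was not tested.

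**Figure D3:**
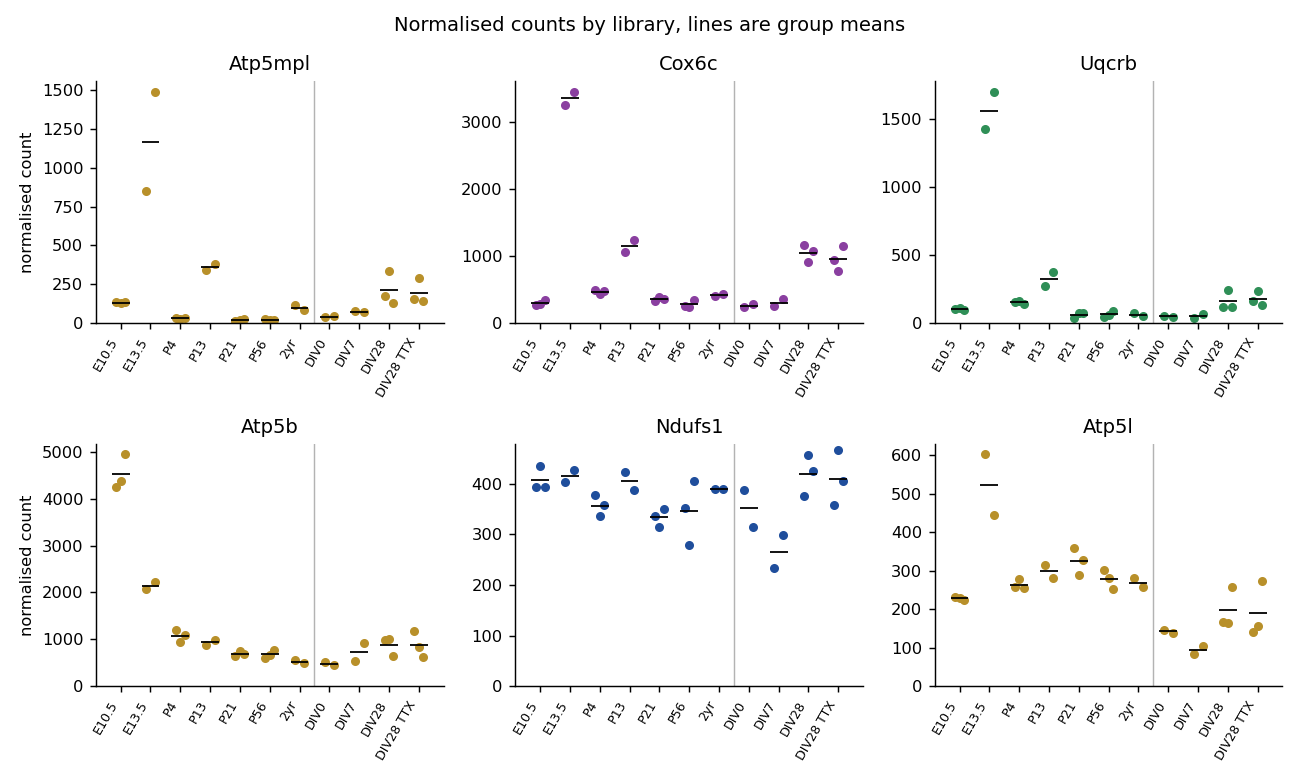
Normalised counts (y axis, linear) of Atp5mpl, Cox6c, Uqcrb, Atp5b, Ndufs1 and Atp5l in every RNA library, by age or condition (x axis). Points are libraries and bars are group means. Atp5mpl, Cox6c and Uqcrb peak at E13.5 and again, lower, at P13, while Ndufs1 stays between 279.9 and 434 in tissue.

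Between P21 and P56 no member was called in either direction, where 0.126% of all genes tested fell and 0.0466% rose. By edgeR's quasi-likelihood test 12 members were lower and 1 was higher at an unadjusted p under 0.05, and DESeq2 also called 0 members in each direction. The median member changed by -0.19 and the median gene by -0.03 on the log2 scale, and single members ranged from -0.92 to 0.71. The lowest p was that of *Uqcrfs1*, with 57.3, 63.3 and 70.5 normalised counts at P21 and 28.9, 29.5 and 50.1 at P56, which did not overlap (log2 fold change -0.82 ± 0.22, SE). Without P56 replicate 3, 1 member was called lower.

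In the aged mice, 4 members rose from P56 to 2 years and none fell, where 0.499% of all genes tested rose and 0.186% fell. At an unadjusted p under 0.05, 0 members were lower by edgeR and 1 by DESeq2. Median log2 fold changes were 0.40 over the members and 0.07 over all genes. *Atp5mpl* had 28.9, 21.4 and 19.8 normalised counts at P56 and 116 and 88.4 at 2 years, a log2 fold change 2.18 ± 0.26 (SE; edgeR quasi-likelihood test, Benjamini-Hochberg adjusted p = 0.000965). *Uqcrq*, a small subunit of complex III, had 30.3, 21.4 and 31.7 at P56 and 61.8 and 65.6 at 2 years, a log2 fold change 1.28 ± 0.24 (SE; edgeR quasi-likelihood test, Benjamini-Hochberg adjusted p = 0.0198). In both genes the libraries of 2 years lay above all 3 of P56. *Uqcrfs1* (1.03 ± 0.23) and *Cox8a* (1.03 ± 0.24, log2 fold change and SE) had edgeR quasi-likelihood p-values that came out over 0.05 after Benjamini-Hochberg adjustment, and 2 members were higher at an adjusted p under 0.05, against 0.373% of all genes. The count was 2 without P56 replicate 1, 2 without 2-year replicate 2, and 2 by median-of-ratios scaling or DESeq2.

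Over the whole span from E13.5 to P21, 71 of 86 members fell and none rose, where 26.3% of all genes tested fell and 29.8% rose. The median member changed by -2.25 and the median gene by 0.15 on the log2 scale. All genes of complexes II, III and IV that were tested fell (4, 8 and 11), with 32 of 38 in complex I, 15 of 17 in complex V and 1 of 8 assembly genes. The assembly genes had a median change of 0.31. The largest changes were in *Atp5mpl* (-5.49 ± 0.25), *Uqcrb* (-4.49 ± 0.25) and *Atp5h* (-4.08 ± 0.18, log2 fold change and SE). The 15 genes not called were Ndufa10, Ndufb2, Ndufb5, Ndufs1, Ndufs3 and Ndufv3, all assembly genes except Ndufaf8, and Atp5g1 and Atp5l. At an adjusted p under 0.05 with no fold limit 2 members were higher, against 41.8% of all genes. At an unadjusted p under 0.05, 3 were higher by edgeR and 2 by DESeq2. The genes under the adjusted limit were *Ndufb2*, an accessory subunit (0.52 ± 0.17), and *Ndufaf7*, an arginine methyltransferase that modifies a complex I subunit (0.76 ± 0.20, log2 fold change and SE).

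The isoform pairs were compared in TPM, the unit of RSEM that is scaled by transcript length as well as by library. In every group the widely expressed isoform was the higher member of its pair. *Cox4i1* had 238 ± 18.4 TPM (SD, n = 2) at E13.5 and 28.4 ± 3.64 TPM (SD, n = 3) at P21, and *Cox4i2*, the isoform known from lung and low oxygen, had 1.97 ± 0.495 TPM at E13.5 and was listed at 0 in all 3 libraries of P21. *Cox6a1* had 136 ± 18.6 TPM (SD, n = 2) at E13.5, and *Cox6a2*, the heart and muscle isoform, was listed at 0 there and had a highest group mean of 0.24 TPM, at P21. For *Cox8a* the mean was 171 ± 36.5 TPM (SD, n = 2) at E13.5, while *Cox8b* had at most 0.96 TPM, at P13. The testis isoform *Cox6b2* reached 6.34 TPM at E10.5, where *Cox6b1* had 277 TPM. The pair was closest at DIV0, with 3.06 ± 0.247 TPM for *Cox6b2* and 5.42 ± 1.85 TPM for *Cox6b1* (SD, n = 2), and the means were 5.37 and 20.1 TPM at DIV7 and 4.64 and 18.3 TPM at P4. *Ndufa4l2*, a paralogue of *Ndufa4* known from low oxygen and from pericytes, had 6.21 ± 0.467 TPM (SD, n = 2) at E13.5, 4.43 ± 2.99 TPM (SD, n = 3) at P4 and was listed at 0 in all libraries of P21. Endothelial markers were also lower at each later age, and their part was not tested.

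The 3 genes for subunit c, whose mature proteins are the same, differed in course. *Atp5g3* was the highest of them at E10.5, E13.5 and P21, with 216, 126 and 22.4 TPM as group means. *Atp5g2* had 142 and 189 normalised counts at E13.5 and 16.8, 31.7 and 31.2 at P4, a log2 fold change -2.50 ± 0.35 (SE; edgeR quasi-likelihood test, Benjamini-Hochberg adjusted p = 6.77e-06). *Atp5g1* had 121 and 107 at E13.5, 77.4, 67.7 and 93.6 at P4 and 185 and 213 at P13. It was called lower from E10.5 to E13.5 and higher from P4 to P13, where *Atp5g2* (0.29 ± 0.39) and *Atp5g3* (0.55 ± 0.20, log2 fold change and SE) were not called. Differences between the 3 courses were not tested.

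Members with short transcripts changed most. The median tested member had a mean transcript length of 760.3 bases, against 2418 bases over all tested genes. Among the 57 tested members under 1000 bases 50 fell from E13.5 to P4 (87.7%), and among the 29 longer ones 16 fell (55.2%). Over all genes tested the shares were 44.9% of 1385 genes under 1000 bases and 16.3% of the longer genes. From P13 to P21, 77.2% of the short and 34.5% of the longer members fell, against 20.4% and 4.32% of all genes. From P4 to P13, 43.9% and 20.7% of the members rose, against 11.3% and 5.24% of all genes. Spearman's rho between length and log2 fold change, across genes that share libraries and as a description, was 0.71 for E13.5 to P4 and 0.633 for P13 to P21 over 86 members, and 0.265 and 0.165 over the 15030 genes. The share of members that fell was thus above that of all genes in both length classes. The part of length in these changes was not tested.

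**Figure D4:**
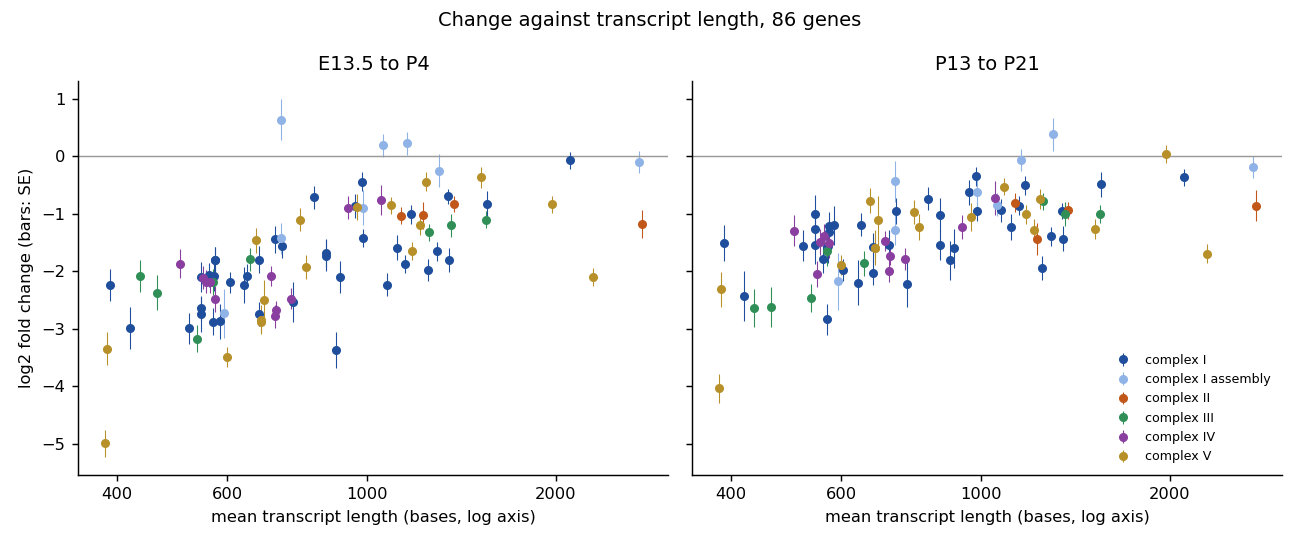
Log2 fold change with SE (y axis) of the 86 tested members against mean transcript length in bases (x axis, log scale), for E13.5 to P4 and P13 to P21, coloured by complex. Points at short length lie lowest, with Atp5mpl at the bottom left of both panels (-4.99 and -4.03), and points rise towards longer transcripts.

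The other genes of the pathway moved in part like the members. The 13 subunits encoded in mitochondrial DNA summed to 4214 to 5203 CPM at E10.5, 879 to 1120 CPM at E13.5, 1071 to 1129 CPM at P4 and 159 to 444 CPM at P21. From E10.5 to E13.5, where whole cells gave way to nuclei, 8 of the 13 fell. How much mitochondrial RNA was carried over into the preparations of nuclei was not measured. From E13.5 to P4, 1 fell (*mt-Nd6*, -2.09 ± 0.34), and the median change was 0.00. In every E13.5 and P4 library *mt-Atp6* was listed at 0 CPM. In most of them *mt-Co2*, *mt-Co3*, *mt-Nd3* and *mt-Nd4l* were at or near 0, so the median does not show that the subunits stayed level. Of 34 tested assembly factors outside the rule, 9 fell and 1 rose from E13.5 to P4, where 19% of all genes fell and 23.8% rose. The largest fall was in *Atpif1*, the inhibitor of the ATP synthase (-4.13 ± 0.20), which rose again from P4 to P13 (1.90 ± 0.19) and fell from P13 to P21 (-2.64 ± 0.20, log2 fold change and SE). *Ttc19*, a complex III factor, rose from E13.5 to P4 (2.00 ± 0.16, SE).

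In the citric acid cycle 2 of 16 genes fell from E13.5 to P4 and none rose, against the 19% and 23.8% of all genes. Of the 16, 3 rose and none fell from P4 to P13 (median log2 fold change 0.50), and 3 fell and none rose from P13 to P21 (median -0.58). *Mdh2*, the mitochondrial malate dehydrogenase, had log2 fold changes of -1.36 ± 0.15, 1.07 ± 0.15 and -1.64 ± 0.15 (SE) over the 3 steps. In glycolysis 8 of 17 genes fell from E13.5 to P4 and 5 rose, against the same 19% and 23.8% of all genes. From P4 to P13, 3 of the 17 rose and none fell, with a median log2 fold change of 0.65, where 5.8% of all genes rose. From P13 to P21, 6 fell and none rose, with a median of -0.85, where 5.8% of all genes fell. Between E13.5 and P4 *Ldha*, a lactate dehydrogenase, fell by 2.06 on the log2 scale. *Eno2*, the neuronal enolase, rose by 3.66 ± 0.40 (SE) over the same step. Of 13 regulators of respiratory genes, 5 rose and 2 fell from E13.5 to P4, where 23.8% of all genes rose and 19% fell. Those that rose included the coactivator *Ppargc1a* (3.04 ± 0.38) and the receptor *Esrrb* (3.09 ± 0.44). *Gabpa* (-1.55 ± 0.20) and *Tfam*, which binds mitochondrial DNA (-1.23 ± 0.19, log2 fold change and SE), were the 2 that fell. None of the 13 regulators was called from P4 to P13 or from P13 to P21.

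In culture fewer members were called over time than between E13.5 and P21 in tissue, where the SEs were smaller. From DIV0 to DIV7 none was called in either direction by edgeR's quasi-likelihood test, where 8.36% of all genes tested rose and 2.81% fell. At an unadjusted p under 0.05, 8 of 76 were higher and 4 lower, and DESeq2 called 1 in each direction. At an adjusted p under 0.05 with no fold limit 3 were higher and 1 (*Ndufb5*, -1.28 ± 0.33, log2 fold change and SE) was lower, against 14.7% and 8.39% of all genes. The DIV7 libraries differed from each other. *Cox8a* had 23.5 and 13.8 normalised counts at DIV0 and 45.0 and 124 at DIV7. *Atp5a1* had 527 and 489 at DIV0 and 566 and 1027 at DIV7. In both genes DIV7 replicate 2 lay well above DIV7 replicate 1, the shallowest library of the series. The fibroblast markers summed to 283.6 CPM in replicate 1 and 23.4 CPM in replicate 2 and the astrocyte markers to 144.6 and 266.7 CPM, against at most 2.0 and 93.2 CPM at DIV0, and their part was not tested. From DIV0 to DIV7, 2 of 6 tested astrocyte markers rose (median log2 fold change 4.49). Without DIV7 replicate 1, 1 member was called higher, and without DIV7 replicate 2, 1 was called lower.

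From DIV7 to DIV28, 3 of 76 members rose and none fell, where 3.62% of all genes tested rose and 4.09% fell. At an unadjusted p under 0.05, 31 were higher and 0 lower (0 lower by DESeq2 too), and at an adjusted p under 0.05, 15 were higher, against 8.71% of all genes. The 3 were *Cox6c* (1.79 ± 0.27), *Atp5pb* (1.37 ± 0.25) and *Atp5h* (1.31 ± 0.30, log2 fold change and SE). No member was called without DIV7 replicate 1, and 3 were called without DIV28 replicate 3, the library with the DIV0 title. With the replicate number as a block, 10 were called higher.

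From DIV0 to DIV28, 8 of 76 members rose and none fell, where 11.5% of all genes tested rose and 7.45% fell. Embryoid bodies gave way to growth on astrocytes over this span, which cannot be told apart from time. At an adjusted p under 0.05 with no fold limit 35 were higher, against 21.8% of all genes, and at an unadjusted p under 0.05, 48 were higher and 0 lower, with 0 lower by DESeq2. On the log2 scale the members had a median change of 1.05 and all genes a median of 0.06. The 8 were Ndufaf4, Uqcrc1, Cox6c, Cox7b, Cox8a, Atp5d, Atp5h and Atp5mpl. *Cox6c* had 247 and 287.5 normalised counts at DIV0, 257 and 358.5 at DIV7 and 1161, 919 and 1075 at DIV28, where every DIV28 library lay above all earlier ones, a log2 fold change 2.01 ± 0.27 (SE; edgeR quasi-likelihood test, Benjamini-Hochberg adjusted p = 0.000169). *Ndufaf4*, an early assembly factor, had 70.6 and 67.3 at DIV0 and 228, 301 and 353 at DIV28, a log2 fold change 2.12 ± 0.34 (SE; edgeR quasi-likelihood test, Benjamini-Hochberg adjusted p = 0.000528). *Uqcrc1* had 94.1 and 96.3 at DIV0 and 311, 336 and 253 at DIV28, a log2 fold change 1.68 ± 0.32 (SE; edgeR quasi-likelihood test, Benjamini-Hochberg adjusted p = 0.00143). None of these 3 genes overlapped between DIV0 and DIV28. The count was 1 without DIV0 replicate 1 and 1 without DIV0 replicate 2, 5 without DIV28 replicate 2, and 14 without DIV28 replicate 3, and 23 with the replicate number as a block. Marker genes moved over the same time. *Chat* had 419.9 and 288 CPM at DIV0 and 93.8, 52.5 and 58.0 CPM at DIV28, and of the 6 motor neuron markers 3 fell and 1 rose, with a median log2 fold change of -1.60. The 6 tested astrocyte markers had a median log2 fold change of 3.22 and none was called, and their sum was 69.9 to 93.2 CPM at DIV0 and 37.0 to 120.5 CPM at DIV28. The endothelial markers summed to 1.7 to 2.6 CPM at DIV0 and 18.1 to 32.5 CPM at DIV28. Nearly all of the DIV28 sum was *Flt1* (25.14, 32.35 and 17.43 CPM), the 1 of the 6 that was tested, which was called higher. *Kdr* went from 1.46 and 2.29 CPM at DIV0 to 0, 0 and 0.47 CPM at DIV28. At DIV28 *Tek* and *Cldn5* were at 0 CPM, *Pecam1* at most at 0.24 and *Cdh5* at most at 2.45 CPM. The part of these markers in the change of the members was not tested. Of the 13 genes of mitochondrial DNA 7 were tested, and all 7 rose from DIV0 to DIV28, with *mt-Nd1* at 4.33 ± 0.49 and *mt-Co1* at 2.54 ± 0.35 (log2 fold change and SE). These libraries are of nuclei, and how much mitochondrial RNA was carried over in each preparation was not measured.

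Silencing the cultures changed no member beyond the limits. With TTX, 0 of 76 members were called in either direction, where 0.279% of all genes tested rose and 0.403% fell. No member reached an unadjusted p under 0.05 in edgeR's quasi-likelihood test, the lowest Benjamini-Hochberg adjusted p was 0.643, and DESeq2 called 0 in each direction. The median member changed by -0.06 and the median gene by 0.01 on the log2 scale, and members ranged from -0.87 to 0.34. *Cox6c* had 1161, 919 and 1075 normalised counts without and 948, 778 and 1157 with TTX, with overlap, and a log2 fold change of -0.15 ± 0.22 (SE). *Atp5a1* had 1129.8, 1692 and 725 without and 1499.7, 1589.6 and 819 with TTX, where replicate 3 was the lowest in both groups, and a log2 fold change of 0.12 ± 0.35 (SE). A call needed an unadjusted p under 0.001 and a 2-fold change, so changes of several SE could also have been missed. In the same fit *Ndufa2* was not called from DIV0 to DIV28, at a log2 fold change of 2.75 ± 0.64 (SE). The values with TTX do not show that the members were the same. The count stayed 0 with the replicate pair as a block and without DIV28 replicate 3, when the median was -0.19. None of the 6 motor neuron markers (median log2 fold change -0.56) or the 6 tested astrocyte markers (0.89) was called. *Chat* had 93.8, 52.5 and 58.0 CPM without and 49.2, 23.9 and 17.4 with TTX. *Prph* had 1100, 1061 and 603 CPM without and 1484, 1240 and 782 with it. The part of these markers was not tested.

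At the start of the culture the members were far below their level in E13.5 tissue. In DIV0 against E13.5, 77 of 86 members were lower and none higher, where 24.3% of all genes tested were lower and 15.1% higher. The median member differed by -2.75 and the median gene by -0.17 on the log2 scale. By edgeR and by DESeq2, 0 members were higher at an unadjusted p under 0.05. All tested genes of complexes II, III, IV and V were lower (4, 8, 11 and 17), with 33 of 38 of complex I and 4 of 8 assembly genes. *Atp5h* had 3012 and 4157 normalised counts at E13.5 and 133 and 153 at DIV0, a log2 fold change -4.67 ± 0.27 (SE; edgeR quasi-likelihood test, Benjamini-Hochberg adjusted p = 4.66e-11). *Cox5b* had 944 and 906 at E13.5 and 78.4 and 90.2 at DIV0, a log2 fold change -3.48 ± 0.27 (SE; edgeR quasi-likelihood test, Benjamini-Hochberg adjusted p = 8.33e-10). Neither gene overlapped. *Ndufs1* differed little, with a log2 fold change of -0.26 ± 0.18 (SE). Erythroid markers were at most 1.2 CPM and endothelial markers at most 2.6 CPM at DIV0, against at least 3578 and 2751 CPM at E13.5, and their part was not tested.

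At the end of the culture the order was turned around. In DIV28 against P21, 21 of 86 members were higher and 1 was lower, where 13.3% of all genes tested were higher and 13.1% lower. At an adjusted p under 0.05 with no fold limit 49 were higher and 2 lower, against 26.5% and 25.5% of all genes. The median member differed by 0.72 and the median gene by 0.03 on the log2 scale. The higher ones were 6 of complex I, 1 of complex II, 4 of complex III, 5 of complex IV and 5 of complex V. *Atp5mpl* had 18.2, 23.9 and 27.6 normalised counts at P21 and 176, 333 and 128 at DIV28, a log2 fold change 3.27 ± 0.32 (SE; edgeR quasi-likelihood test, Benjamini-Hochberg adjusted p = 3.94e-08). *Sdhd* had 23.8, 22.5 and 31.8 at P21 and 98.5, 134 and 52.5 at DIV28, a log2 fold change 1.94 ± 0.31 (SE; edgeR quasi-likelihood test, Benjamini-Hochberg adjusted p = 2.56e-05). Every DIV28 library of both genes lay above every P21 library. *Ndufaf2*, a late assembly factor, was the member that was lower, with 55.9, 95.6 and 80.1 at P21 and 15.1, 32.6 and 30.6 at DIV28, a log2 fold change -1.45 ± 0.32 (SE; edgeR quasi-likelihood test, Benjamini-Hochberg adjusted p = 0.000716). It was not called without P21 replicate 2 or without DIV28 replicate 1. The count of higher members was 29 without DIV28 replicate 3, 14 without P21 replicate 1, and 7 when only these libraries were fitted. All 6 oligodendrocyte markers were lower at DIV28 (median log2 fold change -8.28). So were 4 of 7 astrocyte and 5 of 7 erythroid markers, and none of these lists had a higher gene. Of 6 endothelial markers 3 were lower and 1 was higher, and of 6 motor neuron markers 1 was higher. The part of these markers was not tested.

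The change over time in culture differed from that in tissue for most members. The test asked whether the log2 change from DIV0 to DIV28 was unlike the log2 change from E13.5 to P21. It was higher for 75 of 86 members and lower for none, where 24.2% of all genes tested were higher and 17.5% lower. At an unadjusted p under 0.05, 0 members were lower by edgeR or by DESeq2. The median difference was 3.45 over the members and 0.16 over all genes. Called were 34 of 38 genes of complex I, 4 of 4 of II, 8 of 8 of III, 11 of 11 of IV, 16 of 17 of V and 2 of 8 assembly genes. *Atp5mpl* had a difference of 8.02 ± 0.50 and *Cox6c* of 5.25 ± 0.26 (SE), with edgeR quasi-likelihood Benjamini-Hochberg adjusted p-values of 6.26e-11 and 4.48e-12. The 11 genes not called were Ndufb2, Ndufb5, Ndufs1, Ndufs3, 6 assembly genes (all but Ndufaf4 and Ndufaf8) and Atp5g2. Of the 76 genes tested in both systems, 65 were below 0 in tissue and above 0 in culture. The same count was not made over all genes. In culture 8 of these 76 were called higher, where 11.5% of all genes tested were. Without DIV28 replicate 3 the test of the difference had 75 members higher. This test uses the same DIV0 and E13.5 libraries as the comparison of DIV0 against E13.5 above, so the 2 are not independent. In culture, time cannot be told apart from the change from embryoid bodies to growth on astrocytes.

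**Figure D5:**
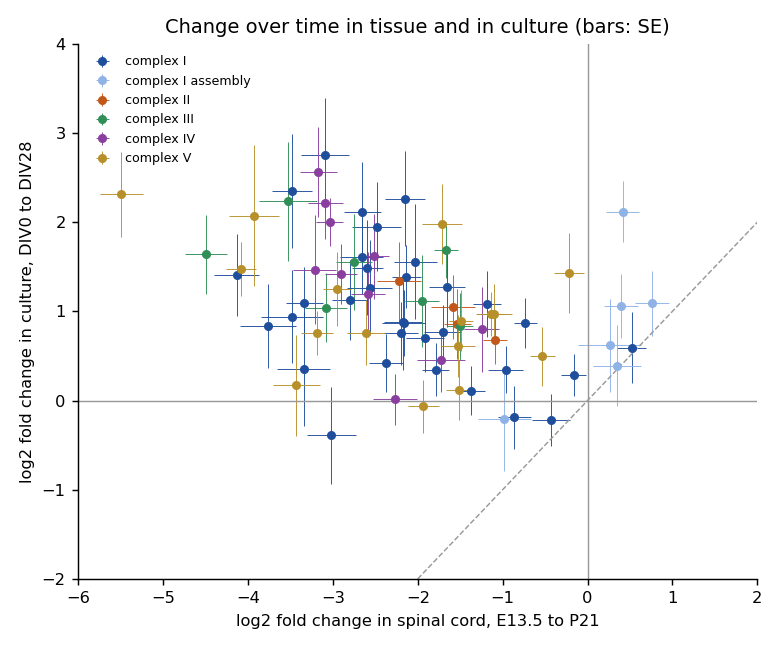
Log2 fold change from DIV0 to DIV28 in culture (y axis) against log2 fold change from E13.5 to P21 in spinal cord (x axis), with SE bars, for the 76 members tested in both, coloured by complex. Lines mark 0 and the dashed line equal change. Most points (65) lie in the upper left, below 0 in tissue and above 0 in culture. The same count was not made over all genes.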

How the data were processed

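RNA was measured in 28 libraries and open chromatin in 22, grouped by age or culture condition. The authors aligned RNA reads to mm10 with STAR 2.5.2b and estimated them with RSEM 1.3.0. What they deposited per gene was the expected count, not normalised, with TPM beside it. For ATAC-seq the authors called peaks per library with MACS2 2.2.7.1, and the deposited peak lists give a fold enrichment (a ratio to background) and −log10 p, with no read depth.

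Rounded expected counts of genes that reached 5 CPM in all replicates of some group were used, and edgeR 4.0.16 (R 4.3.3; TMM, quasi-likelihood) was fitted to all genes of 18 tissue, 10 culture or 25 libraries without TTX, in 14 comparisons. The limits were those of the study, and p-values were Benjamini-Hochberg adjusted over all genes. DESeq2 1.42.0 was an alternative, and the fit was tested on simulated data. Normalised counts used median-of-ratios size factors over the 28 libraries. Peaks were tied to GENCODE starts of GRCm38, which is mm10, and promoters came from RefSeq. The study pairs DIV28 with TTX cultures, and same-numbered libraries deviated together over genes (correlations 0.69, 0.574 and 0.743). Named genes were fixed isoform families, core subunits, the 5 lowest p of each direction and called members against the trend, and Atp5l, Atp5pb, Ndufaf6, Ndufb2, Ndufb5 and Ndufaf7 were named after their values were seen. Some members are not reported by name. Members and lists were chosen with earlier results of these data known. Counts set the precision, and libraries with fewer counts have wider errors.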

Additional observations from a re-analysis of the deposited data

Results flagged for a closer look

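The change over time differed between the spinal cord and the culture for 75 members, by the test of the difference between the change from DIV0 to DIV28 and the change from E13.5 to P21. In each of these 75 the change in culture was the higher. The 5 with the lowest p were *Cox6c*, with a log2 difference of 5.25, *Atp5h* with 5.76, *Atp5mpl* with 8.02, *Atp5j* with 4.15 and *Uqcrc1* with 3.56. All 5 fell in tissue. In culture *Cox6c*, *Atp5h*, *Atp5mpl* and *Uqcrc1* rose and *Atp5j* was not called. Erythroid and endothelial markers were at their highest in the E13.5 libraries and near 0 at DIV0, and their part in these differences was not tested. The change of culture format after DIV0 cannot be told apart from time in culture.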

How the results depend on the processing

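Over all alternatives, 277 counts of called members stayed within 1.5 times the reported count and 43 did not, 135 medians moved by less than the spread between libraries, and named genes kept their call in 1673 of the fits and lost it in 92. An adjusted p under 0.05 with no fold limit gave 20 lower members for E10.5 to E13.5, 63 higher for P4 to P13, 2 higher for P56 to 2 years, 2 higher for E13.5 to P21, 1 lower and 3 higher for DIV0 to DIV7, 15 higher for DIV7 to DIV28, 35 higher for DIV0 to DIV28, and 2 lower and 49 higher for DIV28 against P21. Median-of-ratios scaling and DESeq2 each gave a median of 0.35 for E10.5 to E13.5 and 2 higher members for P56 to 2 years, and DESeq2 called 1 lower and 1 higher for DIV0 to DIV7, 6 higher for DIV7 to DIV28 and 18 higher for DIV0 to DIV28. Without the filter on low values the medians were 0.32 for E10.5 to E13.5 and -2.02 for E13.5 to P4, 1 member was lower for P4 to P13, and 3, 9 and 22 were higher for DIV0 to DIV7, DIV7 to DIV28 and DIV0 to DIV28. The filter changes the genes tested. Fits of the compared libraries alone, which have fewer samples, gave 3 lower members for E10.5 to E13.5, 2 higher for P56 to 2 years, 1 higher for DIV0 to DIV7, and 0 lower and 7 higher for DIV28 against P21.

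Leaving out each library in turn gave 2 to 8 lower members and medians of 0.16 to 0.45 for E10.5 to E13.5, medians of -1.95 to -1.80 for E13.5 to P4, 0 to 1 lower for P21 to P56, 2 to 3 higher for P56 to 2 years, 0 to 1 lower and 0 to 1 higher for DIV0 to DIV7, 0 to 4 higher for DIV7 to DIV28, 1 to 14 higher for DIV0 to DIV28, medians of -2.90 to -2.65 for DIV0 against E13.5 and 0 to 1 lower for DIV28 against P21. Direction turned in 2 of these fits. The median for DIV0 to DIV7 ranged from -0.12 (without DIV7 replicate 2) to 0.60, and that for TTX from -0.19 to 0.0145 (without TTX replicate 3), and no member was called with TTX in any of them. An arm left with 1 library is assumed to vary like the other groups.

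The replicate block, fitted as an alternative, gave 1 lower and 2 higher members for DIV0 to DIV7, 10 higher for DIV7 to DIV28 and 23 higher for DIV0 to DIV28, and changed no other count by over 1.5 times. Outside DIV28 and TTX the numbers were not shown to pair the samples, with correlations such as 0.169, -0.0855 and 0.223 for P21 and P56. Where not stated, the cause of a change was not tested.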
